A study of Rattus norvegicus with 6 samples.

Results

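The 26S proteasome is the protease complex that degrades ubiquitin-tagged proteins, and the genes of its constitutive subunits were followed in RNA-seq of neonatal rat cardiac fibroblasts (NRCFs). Members were taken by symbol, as every symbol that starts with Psma, Psmb, Psmc, Psmd, Psmf or Psmg and a digit, apart from the immunoproteasome subunits Psmb8, Psmb9 and Psmb10. This gave 42 of the 21857 symbols in the files, and 40 had 10 or more counts in at least 3 libraries. The 40 were 7 α and 7 β subunits of the 20S core, 6 ATPases and 11 non-ATPase subunits of the 19S regulatory particle, 7 assembly chaperones, the inhibitor gene Psmf1 and Psmc3ip. Psmc3ip is named after an ATPase that its product binds and encodes a recombination factor, not a proteasome subunit. The remaining members, Psma8 and Psmb11, are known for expression in testis and thymus, and each had at most 3 counts in any library.

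NRCFs, primary cells grown from hearts of Sprague-Dawley rats no more than 3 days old by the design text, were transfected with an FTO plasmid or with the empty plasmid (Vector). FTO is an enzyme that removes N6-methyladenosine from RNA, and the plasmid carried the rat cDNA in a pcDNA backbone, so transcripts of plasmid and genome share their coding sequence. The Vector group holds the 3 libraries with the genotype label WT, and the other group the 3 libraries labelled FTO overexpression. The strain label of all 6 libraries reads Noway, which differs from the design text. No source used here says whether the libraries came from separate animals or cultures, so the p-values below measure the spread between these libraries, which may be technical.

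The libraries held 13178952 to 17857999 counts. Fto itself was at 87.4 to 89.6 CPM (counts scaled to a fixed library total) in Vector and at 90.8 to 93.2 CPM in the other group (adjusted p 0.239, quasi-likelihood test of edgeR), so the second group is called the libraries labelled FTO throughout. All 11 fibroblast markers were counted in every library, with 5 higher and 6 lower in the second group. Their summed CPM ran from 42316 to 42906 in Vector and from 22191 to 23230 in the libraries labelled FTO. Single markers moved far in both directions, such as Dcn (log2 fold change 6.90) and Col1a1 (-1.64). The summed CPM of 8 macrophage markers ran from 587 to 608 in Vector and from 119 to 132 in the libraries labelled FTO, with all 8 lower, and that of 8 cardiomyocyte markers from 1466 to 1496 and from 2204 to 2245, with 7 higher and 1 lower. Of 6 endothelial markers, Emcn was at 0 in each Vector library and at 0.0701, 0.0755 and 0.503 CPM in the libraries labelled FTO. Of the 4 tested 3 were higher, and the sums of all 6 were 19.3 to 19.8 and 43.3 to 44.96 CPM. For 10 interferon-response genes, all higher, they were 184 to 191 and 3654 to 3991 CPM. The part of these differences in the results on the proteasome was not tested, and in bulk RNA fewer cells of a type and less RNA per cell cannot be told apart.

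As background, the 20S core is a barrel of stacked rings. The outer rings are built of α subunits, which gate the entry, and the inner rings of β subunits, of which Psmb5, Psmb6 and Psmb7 carry the proteolytic sites. The 19S particle caps the barrel. Its ATPases unfold substrates, and its non-ATPase subunits bind ubiquitin, remove it and hold the lid together. Cells exposed to interferon-γ exchange the 3 proteolytic β subunits for Psmb8, Psmb9 and Psmb10, and cells with too little proteasome activity raise the constitutive genes together through the transcription factor encoded by Nfe2l1.

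Constitutive proteasome genes were higher in the libraries labelled FTO by 1.296 times in summed CPM, and 39 of 40 had a positive log2 fold change. At an adjusted p under 0.05 (edgeR, 3 against 3 libraries), 34 of the 40 members were called higher, 0 lower and 6 neither. Over all 12941 genes tested, 33.2% were called higher and 32.8% lower. On the log2 scale the median change was 0.38 for the members, with quartiles at 0.23 and 0.52, and 0.00 for all genes tested, with quartiles at -0.36 and 0.36. In 36 members each library labelled FTO lay above each Vector library, as was the case in 35.5% of all genes tested. The changes were small: only Psmd10 and Psmf1 reached a log2 fold change of 1 with an unadjusted p under 0.05, 2 of 40 members, against 10.4% of all genes tested that were higher and 9.27% that were lower at that limit. Without the chaperones, Psmf1 and Psmc3ip, 28 of 31 subunits were called higher, with a median of 0.37. The summed CPM of these 31 subunits was 3899, 3802 and 3819 in Vector and 4956, 5115 and 4852 in the libraries labelled FTO.

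**Figure D1:**
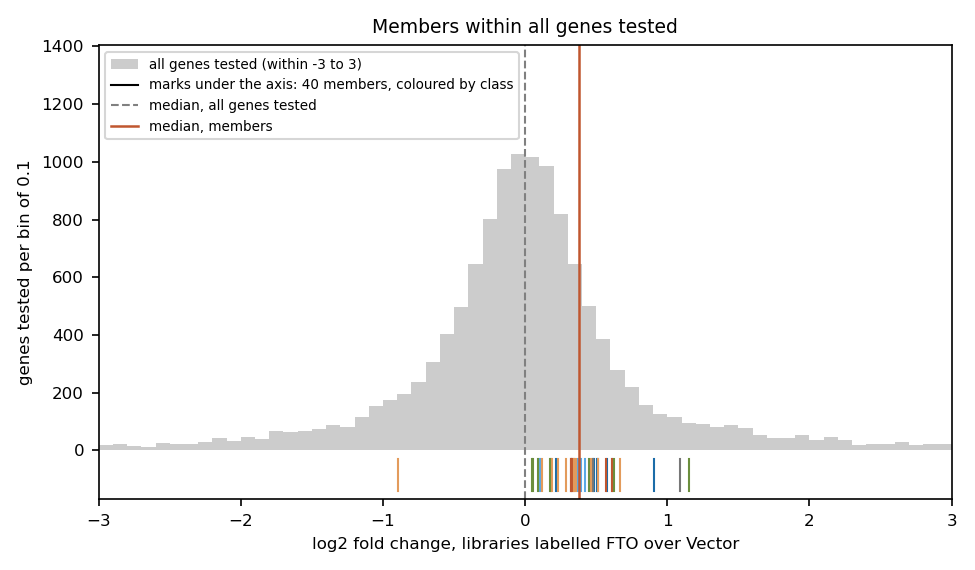
Histogram of the log2 fold change of all genes tested (grey, bins of 0.1, values within -3 to 3 shown), with the 40 proteasome members as marks under the axis, coloured by class. The members gather to the right of the median of all genes (dashed line, 0.00), around their own median of 0.38 (solid line), and 1 mark, Psmd14, lies at -0.90.

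The promoters are shown because the members moved together and because a motif for the Nfe2l1 factor can be searched in them. RefSeq windows of the build GRCr8, 250 bases before to 50 after the gene start, were matched by symbol for 36 of the 40 members, without Psma7, Psmd6, Psmd12 and Psmd14. The core of the antioxidant response element, TGACNNNGC, was searched on both strands and found in 7 of the 36 windows (19.4%), against 12.2% of all 27457 windows. The CCAAT box, searched as CCAAT on both strands, was found in 19 (52.8%), against 37.7% of all windows. All windows were neither limited to the 12941 genes tested nor matched to the members in abundance. The first motif lay before the gene start in 6 members, given here on the gene's strand with the motif, or its reverse complement where it is on the other strand, in capitals and up to 15 flanking bases. In Psmd3 it lay only after the start. Psmd9 holds this motif at 2 places before its start, and in Psmb2 it shares 1 base with a CCAAT box.

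Psmb5, chr15:32047416-32047454, minus strand: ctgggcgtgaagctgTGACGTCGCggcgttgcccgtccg
Psmb6, chr10:55737849-55737887, plus strand: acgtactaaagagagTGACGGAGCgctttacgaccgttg
Psmb2, chr5:144254975-144255013, plus strand: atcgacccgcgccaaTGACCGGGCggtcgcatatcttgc
Psma3, chr6:95219722-95219748, plus strand: agcgttctgtggcctGCCGGGTCAgca
Psmd1, chr9:94157791-94157829, plus strand: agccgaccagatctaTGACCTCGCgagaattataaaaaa
Psmd9, chr12:39018318-39018356, minus strand: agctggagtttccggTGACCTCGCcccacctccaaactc
Psmd9, chr12:39018365-39018403, minus strand: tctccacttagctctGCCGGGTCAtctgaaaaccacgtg

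The median log2 fold change was 0.37 for the 7 with a match and 0.42 for the 29 without, and Psmb5, which has one 60 bases before its start, was not called. For the CCAAT box the medians were 0.48 with and 0.32 without a match. These matches describe the windows only.

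Against 33.2% of all genes tested, all 7 α subunits of the core were called higher. Their summed CPM was 775, 763 and 763 in Vector and 1113, 1152 and 1031 in the libraries labelled FTO, and the median log2 fold change was 0.51. Psma6 had the largest change among all 31 subunits. It was at 111, 110 and 109 CPM in Vector and at 213, 226 and 180 CPM in the libraries labelled FTO, a log2 fold change of 0.90 with an SE of 0.067 (adjusted p 1.1e-08). The lowest of its values in the libraries labelled FTO, in replicate 3, was still far above the Vector range. RefSeq lists 5 pseudogenes named after Psma6, with which reads may be shared. Psma5 followed, with 90.9, 82.1 and 81.3 CPM in Vector and 122, 133 and 124 CPM in the libraries labelled FTO (log2 fold change 0.57). At the other end, Psma7 went from 124, 121 and 124 CPM to 144, 150 and 136 CPM (log2 fold change 0.22, adjusted p 8.4e-04), and Psma4 changed by 0.39. Psma1, Psma2 and Psma3 lay between, with log2 fold changes of 0.52, 0.51 and 0.48. In each α subunit every library labelled FTO lay above every Vector library, as in 35.5% of all genes tested.

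**Figure D2:**
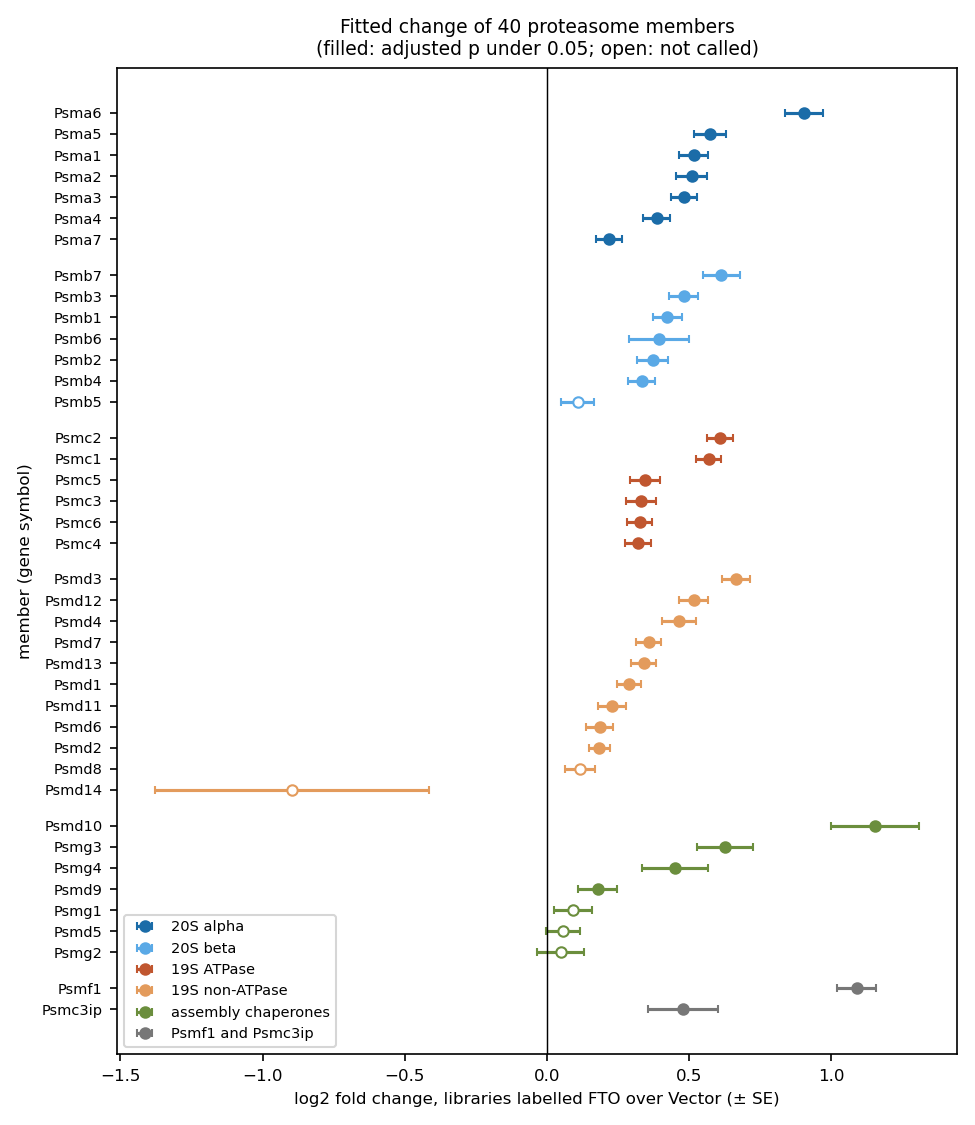
Log2 fold change (labelled FTO over Vector) for the 40 members, ordered by size within each class; points are fitted values of 3 against 3 libraries, bars the standard error, filled points called at an adjusted p under 0.05. Of the 40 points 39 lie to the right of 0, from 0.05 (Psmg2) to 1.15 (Psmd10), and Psmd14 lies at -0.90 with the widest bar.

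Of the 7 β subunits 6 were called higher, against 33.2% of all genes tested, and the exception was a proteolytic one. Psmb5, which carries the chymotrypsin-like site, was at 113, 103 and 114 CPM in Vector and at 119, 126 and 111 CPM in the libraries labelled FTO. These ranges overlap. Its log2 fold change was 0.11 (SE 0.058), its adjusted p 0.113, and the 95% confidence interval of its fold change 0.989 to 1.17. Without FTO replicate 3, the lowest of the libraries labelled FTO for this gene, Psmb5 was called higher (log2 fold change 0.15, adjusted p 0.0149).

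The other 2 proteolytic subunits were called. Psmb7, of the trypsin-like site, rose from 45.4, 51.4 and 53.9 CPM to 75.5, 79.3 and 76.1 CPM, the largest change among the β subunits (log2 fold change 0.61, SE 0.064, adjusted p 6.3e-07). Psmb6, of the caspase-like site, rose from 11.1, 9.66 and 11.3 CPM to 14.03, 14.8 and 13.4 CPM (log2 fold change 0.39, SE 0.105, adjusted p 0.00399). Psmb6 rests on 182.5 counts per library on average, fewer than any other subunit, and RefSeq lists 3 near copies named after it, with which reads may be shared. The structural subunits Psmb3, Psmb1, Psmb2 and Psmb4 changed by 0.48, 0.42, 0.37 and 0.33. In each of them every library labelled FTO lay above every Vector library, as in 35.5% of all genes tested. For Psmb3, RefSeq lists 10 copies named after it.

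All 6 ATPases of the 19S particle were called higher, against 33.2% of all genes tested, and their changes lay at 2 levels. Psmc2 rose from 133, 125 and 129 CPM to 201, 203 and 187 CPM (log2 fold change 0.61, SE 0.047, adjusted p 1.8e-08), and Psmc1 from 166, 155 and 158 CPM to 238, 241 and 232 CPM (log2 fold change 0.57). As background, these 2 ATPases are neighbours in the ring, and whether position goes with the change was not tested. The other 4 lay close together. Psmc5, Psmc3, Psmc6 and Psmc4 changed by 0.34, 0.33, 0.33 and 0.32, each with an SE of 0.044 to 0.054. In each of these 4 every library labelled FTO lay above every Vector library, as in 35.5% of all genes tested.

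Against 33.2% of all genes tested, 9 of the 11 non-ATPase subunits were called higher. The largest rise was that of the lid subunit Psmd3, from 121, 111 and 118 CPM to 182, 195 and 178 CPM (log2 fold change 0.66, SE 0.050, adjusted p 1.25e-08). The lid subunit Psmd12 followed with 0.52. The ubiquitin receptor Psmd4 rose from 117, 108 and 109 CPM to 153, 166 and 141 CPM (log2 fold change 0.46). The scaffold subunits of the base also rose. Psmd1 went from 212, 223 and 217 CPM to 258, 273 and 264 CPM (0.29), and Psmd2 from 372, 369 and 372 CPM to 415, 423 and 428 CPM (0.18, SE 0.038, adjusted p 5.4e-04). The lid subunits Psmd7, Psmd13, Psmd11 and Psmd6 changed by 0.36, 0.34, 0.23 and 0.19. Psmd8 was not called although its groups did not overlap, at 126, 115 and 123 CPM in Vector and 127, 139 and 129 CPM in the libraries labelled FTO (log2 fold change 0.12, adjusted p 0.0617, 95% confidence interval of the fold change 1.004 to 1.17). It was called higher with library size alone as the scaling (adjusted p 0.0474), without Vector replicate 1 (adjusted p 0.04996) and without FTO replicate 3 (adjusted p 0.0359).

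Psmd14 stood apart from every other member. It encodes the deubiquitinase of the lid, the metalloprotease that cuts ubiquitin off a substrate as it enters the core, and works as a pair with Psmd7. Vector held 1238, 1379 and 1090 counts of it, and the libraries labelled FTO 266, 135 and 1866, in the order of their replicate numbers. In CPM it was at 90.6, 92.5 and 75.5 in Vector and at 18.7, 10.2 and 104 in the libraries labelled FTO. Replicates 1 and 2 thus held 21.6% and 11.8% of the Vector mean, while replicate 3 held 121% of it, above each Vector library. The other 30 subunits showed no such split, since their median in these 3 libraries was 130%, 136% and 125% of the Vector mean, and the lowest of them in any of the 3 was at 101%.

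The fit over all 6 libraries gave Psmd14 a log2 fold change of -0.90 with an SE of 0.482 and missed the threshold (adjusted p 0.115). It was called lower with limma-voom (-1.51, adjusted p 0.0118), without a filter on low counts (-0.90, adjusted p 0.00574) and with the replicate number as a block (-1.35, adjusted p 0.0140). Without FTO replicate 3 it was -2.57 (SE 0.139, adjusted p 3.3e-12), and without FTO replicate 1 or 2 it was -0.55 and -0.44, with adjusted ps of 0.375 and 0.225. The coefficient of variation of Psmd14 was 10.8% in Vector and 117% in the libraries labelled FTO, where the median over the other 39 members was 3.59% and 4.74% and the highest of the other 39 in that group was 11.4%, for Psma6. Over the whole table, 10613 genes reached 100 counts in at least 1 library. Among these, Psmd14 alone differed by more than 4-fold between the highest and the lowest library labelled FTO (10.1-fold, with 0.1 CPM added to each value), the next gene by 3.87-fold, while 4 genes did so within Vector. RefSeq lists 1 pseudogene named after Psmd14. Tank, the protein-coding gene next to it on chromosome 3 in RefSeq, was at 55.3, 55.3 and 58.2 CPM in the libraries labelled FTO and at 24.9, 25.5 and 26.6 CPM in Vector. No label sets FTO replicate 3 apart from the other replicates.

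**Figure D3:**
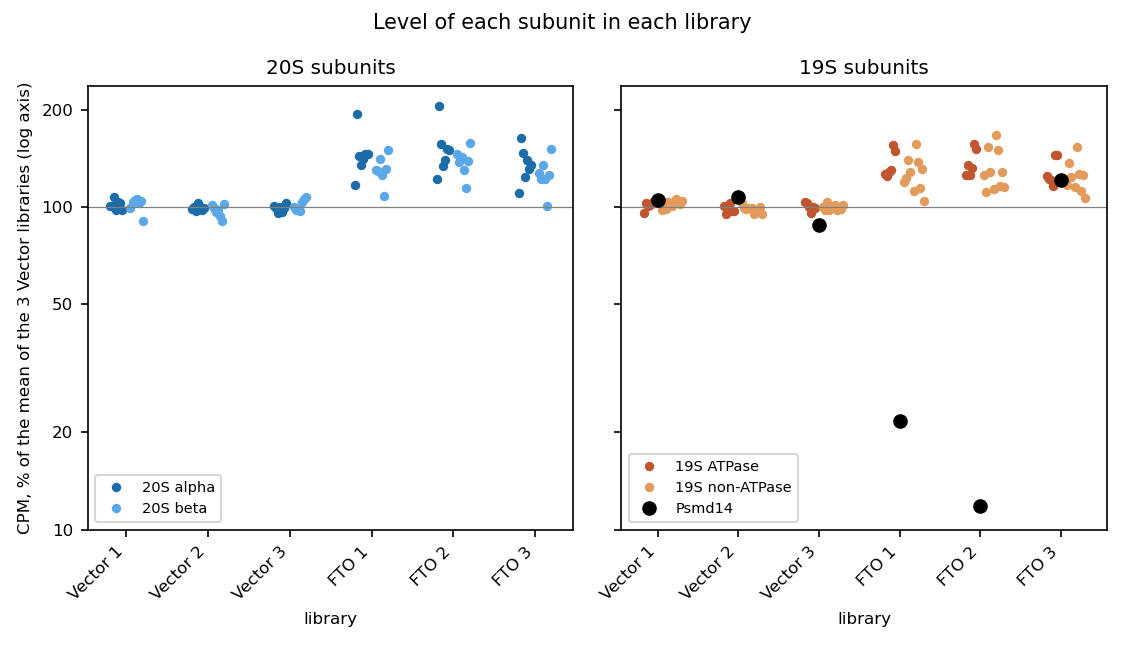
CPM of each 20S subunit (left) and 19S subunit (right) in each of the 6 libraries, as a percent of the mean of the 3 Vector libraries, on a log axis; each point is 1 subunit, and points are spread sideways only to be seen. Psmd14 (black) sits at 21.6% and 11.8% in FTO replicates 1 and 2 and at 121% in FTO replicate 3, among the other subunits.

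By part of the complex, the rise was seen in the core and in the cap. The summed CPM of the 14 core subunits was 1474, 1435 and 1448 in Vector and 1991, 2085 and 1880 in the libraries labelled FTO, 1.37 times the Vector mean, with a median log2 fold change of 0.45. For the 17 subunits of the 19S particle the sums were 2425, 2367 and 2372 and then 2966, 3030 and 2972, which is 1.25 times, and 1.28 times without Psmd14, with a median log2 fold change of 0.33. Whether core and cap differed was not tested. The SD of the log2 fold changes was 0.290 among the 31 subunits, 0.175 without Psmd14, and 1.28 among all genes tested. The last value includes genes of much lower counts and is not matched to the subunits in abundance.

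Of the 7 assembly chaperones 4 were called higher, with a median log2 fold change of 0.18, where 33.2% of all genes tested were called higher. Psmd10, which encodes gankyrin, a chaperone of the 19S base, rose from 3.29, 4.50 and 4.09 CPM to 9.12, 7.70 and 9.55 CPM (log2 fold change 1.15, SE 0.155, adjusted p 9.9e-06), on 95.7 counts per library on average. The other base chaperones differed from it in size. Psmd9 changed by 0.18 (adjusted p 0.0326), a call that was lost in DESeq2 and in 4 of 6 fits without 1 library, and Psmd5 by 0.06 (adjusted p 0.411). Of the chaperones that pair up to build the α ring, Psmg3 and Psmg4 rose, and Psmg1 and Psmg2 were not called. Psmg3 went from 13.8, 17.8 and 14.7 CPM to 23.4, 23.6 and 24.5 CPM (log2 fold change 0.63, adjusted p 4.4e-05) and Psmg4 changed by 0.45 (adjusted p 0.00321). Psmg1 was at 42.0, 41.8 and 41.6 CPM and then at 43.0, 48.5 and 42.3 CPM (0.09, adjusted p 0.241), with no overlap, and Psmg2 at 25.8, 26.8 and 22.1 CPM and then at 25.7, 25.8 and 25.7 CPM (0.05, adjusted p 0.623). The 95% confidence intervals of these folds were 0.965 to 1.17 and 0.915 to 1.17, so a difference of more than 1.17-fold upwards lies outside both.

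Psmf1 encodes PI31, a protein first described as an inhibitor of the core. It rose from 35.0, 31.7 and 35.0 CPM to 74.8, 75.4 and 66.5 CPM (log2 fold change 1.09, SE 0.068, adjusted p 1.5e-09). Psmc3ip changed by 0.48 (adjusted p 0.00296).

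The immunoproteasome subunits, which take the places of the proteolytic β subunits, also rose. Psmb8, Psmb9 and Psmb10 changed by 2.36, 3.38 and 1.95 on the log2 scale. In counts of the same library, Psmb8 was 0.0910, 0.0722 and 0.101 of Psmb5 in Vector and 0.419, 0.421 and 0.430 of it in the libraries labelled FTO. Psmb9 was 0.789, 0.583 and 0.577 of Psmb6 and then 5.51, 5.03 and 4.87 of it, and Psmb10 was 0.378, 0.252 and 0.244 of Psmb7 and then 0.755, 0.713 and 0.701 of it. No ratio overlapped between the groups. The log2 ratios differed by 2.27, 2.99 and 1.34, each with p = 0.10 in a two-sided exact permutation test over the 6 libraries, the smallest p that 3 against 3 allows, and 0.10 after adjustment over the 3 ratios. As counts are not corrected for gene length, a ratio above or below 1 says nothing about which subunit was more abundant.

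**Figure D4:**
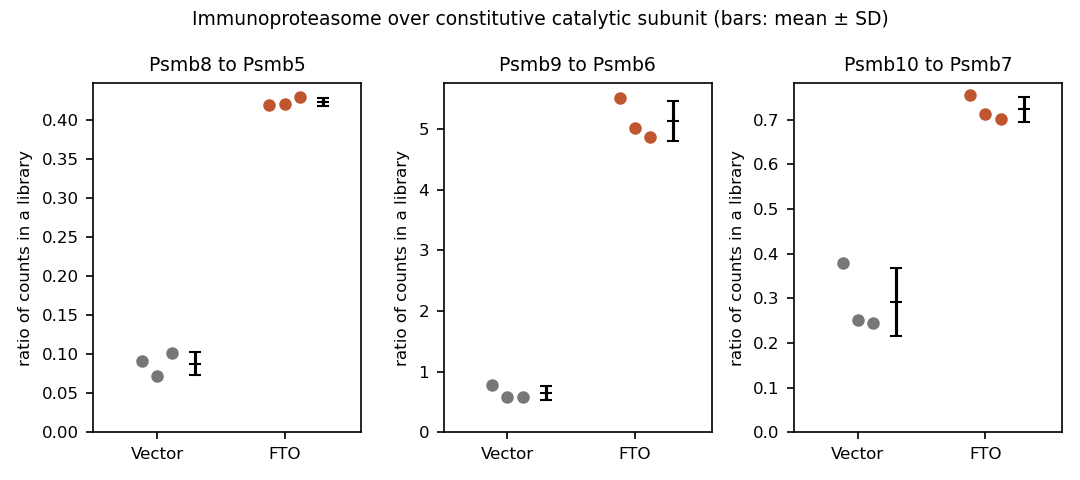
Ratio of the count of an immunoproteasome subunit to that of the constitutive subunit it replaces, in each of the 3 Vector libraries (grey) and the 3 libraries labelled FTO (orange), with mean ± SD beside the points; axes start at 0 and differ between panels. In each panel all 3 libraries labelled FTO lie above all 3 Vector libraries, with means of 0.424 against 0.0882, 5.13 against 0.650 and 0.723 against 0.291.

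Around the complex, 42 genes of the ubiquitin-proteasome pathway were examined, these 3 included, of which 40 were tested. Of these, 19 were called higher and 8 lower, with a median log2 fold change of 0.11. Over all genes tested, 33.2% were called higher and 32.8% lower. The 19S subunits that the symbol rule does not reach rose: the ubiquitin receptor Adrm1 from 80.8, 84.8 and 79.6 CPM to 103, 110 and 102 CPM (log2 fold change 0.36), and Sem1 from 47.5, 51.7 and 51.9 CPM to 66.7, 73.6 and 66.9 CPM (0.45). Of 4 activator genes of the core 3 were tested. Psme2, a subunit of the interferon-inducible cap, rose from 2.49, 3.89 and 3.60 CPM to 13.0, 13.9 and 13.7 CPM (2.02, adjusted p 9.8e-09). Its partner Psme1 was at 0 in each Vector library and at 0.210, 0 and 0.335 CPM in the libraries labelled FTO, and was not tested. Counts were assigned to Psme1-ps1, listed by RefSeq as a pseudogene. It was at 25.1, 24.96 and 26.5 CPM in Vector and 67.3, 72.6 and 61.0 CPM in the libraries labelled FTO. Psme3, the activator of the nucleus, changed by 0.15 (adjusted p 0.0233), a call lost in DESeq2 and in 5 of 6 fits without 1 library. Psme4 changed by -0.10 (adjusted p 0.0584).

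Of 8 genes of the p97 segregase, which extracts ubiquitin-tagged proteins for the proteasome, 6 rose and 1 fell. Vcp, the ATPase itself, rose from 610, 588 and 570 CPM to 664, 654 and 659 CPM (log2 fold change 0.16), and its cofactor Nploc4 had the highest value of the list, 0.46. Ubxn7 had the lowest, -0.39 (adjusted p 0.0491), with overlapping groups at 11.4, 12.9 and 13.2 CPM and 9.47, 6.57 and 12.1 CPM. This call was lost with library size alone as the scaling (adjusted p 0.0542) and in 4 of 6 fits without 1 library, without Vector replicate 2 or 3 or FTO replicate 1 or 2 (adjusted p 0.106 to 0.180). Of 10 ubiquitin shuttles and proteasome-bound deubiquitinases 2 were called higher and 3 lower, shares below the 33.2% and 32.8% of all genes tested. Ubqln2 had the highest value of these, 0.35, and Ubqln4 the lowest, -0.20. Like Psmd14 in the fit over all 6 libraries, the other deubiquitinases of the 19S particle were not called, Usp14 at 0.09 (adjusted p 0.109) and Uchl5 at -0.04 (adjusted p 0.750).

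Rps27a, a ubiquitin-ribosomal fusion gene, fell from 794, 776 and 780 CPM to 652, 669 and 595 CPM (log2 fold change -0.29). The E1 enzyme gene Uba1, which activates ubiquitin, rose by 0.31.

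Of 8 regulators of proteasome genes 1 was called higher and 3 lower, where all genes tested gave 33.2% and 32.8%. Nfe2l1 was at 195, 194 and 191 CPM in Vector and 205, 194 and 221 CPM in the libraries labelled FTO (log2 fold change 0.10, adjusted p 0.0931). It was called only without FTO replicate 2, at 0.14 with an adjusted p of 0.00669. Nfe2l2, the related factor of the antioxidant response, rose from 191, 190 and 183 CPM to 261, 270 and 258 CPM (0.48, adjusted p 6.9e-08), and Nfya, a subunit of the CCAAT-binding factor, fell from 41.3, 44.95 and 43.1 CPM to 31.8, 33.5 and 33.3 CPM (-0.39). Ngly1, which processes the Nfe2l1 protein, changed by -0.18 (adjusted p 0.0172), a call lost in DESeq2 (adjusted p 0.0599) and without Vector replicate 1 (adjusted p 0.0527). The maturation factor Pomp had 9 counts per library on average and was not tested, and Akirin2, an adaptor for nuclear import of the complex, changed by -0.01 (adjusted p 0.848).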

How the data were processed

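Each library has a deposited table of raw counts by gene symbol, made by the authors. The submitters' processing notes name Trimmomatic and the build rn6. Aligner, counter, annotation and strand setting are not given in the sources used here, so genes with near-identical copies are uncertain: RefSeq (GRCr8) lists 42 copies named after 16 of the 40 members. Groups follow the genotype labels, and titles give the replicate numbers. Genes were kept with filterByExpr (minimum count 10), which left 12941 genes, scaled by TMM (factors 0.995 to 1.01) and compared with the quasi-likelihood test of edgeR 4.0.16 in R 4.3.3, two-sided, without covariates, adjusted by Benjamini-Hochberg over all genes tested. CPM are TMM-normalized. SEs are the log2 fold change over the root of F. Counts of replicates differed beyond sampling noise (chi-square over degrees of freedom 1.58 or more). A floor of 3 counts was worth 0.168 to 0.227 CPM, a limit from counting error only. Alternatives were DESeq2 1.42.0, limma-voom (limma 3.58.1), other scalings and filters, the replicate number as a block, and leaving out each library. The procedure was tested on simulated counts in which far fewer genes changed than were called here. That test says nothing about scaling when so many genes differ.

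The members and lists were chosen with earlier results of these data known, and the promoter motifs, Psme1-ps1 and Tank after values were seen. Genes named with values are the proteolytic β subunits, the 2 highest and 2 lowest of each class by fitted log2 fold change, the ubiquitin-handling 19S subunits, members against their class, and set genes and extremes of the related lists. Ecm29 and Ubb, 2 genes of those lists, were not analysed here. Results of some genes of those lists are not reported here.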

Additional observations from a re-analysis of the deposited data

How the results depend on the processing

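The number of members called higher was 33 to 36 and their median log2 fold change 0.36 to 0.40 under the alternatives that kept all 40 members. The number called lower, 0 with edgeR, was 1 with limma-voom, 1 without a filter on low counts, 1 with the replicate number as a block (replicate block) and 0 to 1 when single libraries were left out, 1 only without FTO replicate 3. The gene was Psmd14 each time, and the cause was not tested. Over 520 values of the 40 members, 506 kept direction and side of the threshold, 5 lost the call, 8 gained it and 1 changed sign, Psmg2, at -0.0339 without Vector replicate 3, with -0.0339 to 0.103 over the 6 fits that left out 1 library. Among related genes, none of them called, the log2 fold changes over the same 6 fits crossed 0 for Uchl5 (-0.113 to 0.0470), Akirin2 (-0.0613 to 0.0133) and Mafk (-0.0279 to 0.00924). Replicate numbers gave no sign of pairing the libraries: same-number deviations correlated at 0.00352, -0.0789 and 0.0346, different-number ones at -0.115 to 0.109. With 3 same-number values, and deviations taken from group means, these correlations cannot establish that the libraries were unpaired. The block changed no other call among the members. Psma8, Psmb11, Pomp and Psme1 had too few counts to be tested, and the cause was not tested.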
